A study of Mus musculus with 16 samples.

Results

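The glutathione peroxidases and their antioxidant partners were followed in mouse quadriceps muscle: the 5 glutathione peroxidases Gpx1, Gpx3, Gpx4, Gpx7 and Gpx8, the 3 superoxide dismutases Sod1, Sod2 and Sod3, catalase (Cat), and the selenophosphate synthetase Sephs2. They are 10 of the 41388 genes in the count table and were picked by symbol, around the response of Gpx3 to tamoxifen, so the drug comparisons chose them and are given for them as a description with no test. The study asked whether tamoxifen, a ligand of estrogen receptors, alters the transcriptome of mice that lack Mtm1, the phosphoinositide phosphatase gene mutated in X-linked myotubular myopathy. Total RNA was sequenced from the quadriceps of C57BL/6 mice at postnatal day 36. The groups were wild type on standard chow (WT), wild type given tamoxifen citrate in the feed at 40 mg/kg with sucrose from day 21 (WT + TAM), mice with a germline deletion of exon 4 of Mtm1 on standard chow (*Mtm1* KO), and the same knockout on the tamoxifen feed (*Mtm1* KO + TAM). The 14 libraries that the study analysed were used, with n = 3 for WT, 4 for WT + TAM, 3 for *Mtm1* KO and 4 for *Mtm1* KO + TAM. Tamoxifen was always given in sweetened feed, so drug and feed cannot be told apart.

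Glutathione peroxidases reduce hydrogen peroxide or lipid peroxides, mostly at the expense of glutathione, and superoxide dismutases supply the hydrogen peroxide that they and catalase remove. Gpx1 acts in the cytosol and mitochondria, Gpx4 on lipid peroxides within membranes, Gpx3 is secreted and circulates in plasma, and Gpx7 and Gpx8 reside in the endoplasmic reticulum. Several of these enzymes carry selenocysteine, which is inserted at a UGA codon that would otherwise end translation, and Sephs2, itself a selenoprotein, makes the selenium donor for that residue.

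The members divide by this codon, shown here because it sets the selenium-dependent enzymes apart from their relatives. In the GENCODE vM21 annotation of GRCm38, 4 of the 10 members held an in-frame TGA annotated as selenocysteine. In Gpx1 it was codon 47, at chr9:108339451-108339453 in exon 1 of 2. In Gpx3 it was codon 73, at chr11:54907256-54907258 in exon 2 of 5. In Gpx4 it was codon 73 of the transcript used, at chr10:80054737-80054739 in exon 3 of 7, and in Sephs2 it was codon 63, at chr7:127273731-127273733 on the minus strand, in its only exon. Gpx7 and Gpx8, both on the minus strand, had a cysteine codon in the aligned position, codon 56 at chr4:108403430-108403432 and codon 79 at chr13:113045661-113045663, each in exon 2 of 3. The 27-base windows below are coding sequence read 5′ to 3′ on the gene's strand, with the selenocysteine or aligned cysteine codon in capitals:
Gpx1: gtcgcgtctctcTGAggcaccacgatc
Gpx3: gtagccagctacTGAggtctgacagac
Gpx4: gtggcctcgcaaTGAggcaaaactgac
Sephs2: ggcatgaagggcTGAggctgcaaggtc
Gpx7: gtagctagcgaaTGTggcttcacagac
Gpx8: gtggctagtgacTGCcgcttcacagac

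Total counts ran from 25702605 to 29847222 per library, and each of the 10 members had at least 201 counts in every library, the lowest being Gpx7. Levels are given as normalised RPKM, the deposited RPKM (reads scaled by gene length and library total) divided by the TMM factor of each library. Mtm1 had 341 to 369 counts in WT, 282 to 459 in WT + TAM, 63 to 76 in *Mtm1* KO and 53 to 97 in *Mtm1* KO + TAM, so the 14 libraries separated by their genotype labels. 2 further deposited libraries, labelled WT replicate 1 and *Mtm1* KO replicate 12, were left out by the study. The library labelled WT replicate 1 had 74 Mtm1 counts, the level of the knockouts, and both stood apart in that genes of up to 1000 bases were raised as a class, by 0.82 and 0.49 on the log2 scale against the mean of the 14 libraries used. They enter only where stated. WT + TAM replicates 7 and 8 were the most alike pair, with a chi-square per degree of freedom of 12.4 against 34.0 to 91.0 in the 17 other pairs. All 8 skeletal muscle fiber markers were detected in every library, so the labelled tissue was present, and so were the markers of fat, blood, vessels, fibroblasts and leukocytes. In bulk tissue, fewer cells of a type and less RNA per cell cannot be told apart.

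Gpx3 was the member with the largest drug difference, which is what chose it. In WT its level was 76.7, 48.3 and 63.5 normalised RPKM, and in WT + TAM it was 351, 291, 258 and 253. In *Mtm1* KO it was 94.6, 72.0 and 83.6, and in *Mtm1* KO + TAM it was 186, 142, 185 and 147. Every treated library was thus above every untreated library of either genotype, and the lowest treated wild-type library was above the highest treated knockout. By mean ± SD the groups ranked from WT at 62.8 ± 14.2 (n = 3), through *Mtm1* KO at 83.4 ± 11.3 (n = 3) and *Mtm1* KO + TAM at 165 ± 23.8 (n = 4), up to WT + TAM at 288 ± 45.0 (n = 4). Only the first 2 of these neighbours overlapped. Gpx3 was 4.57-fold higher in WT + TAM than in WT, a log2 fold change of 2.19 with a standard error of 0.19, and 1.96-fold higher in *Mtm1* KO + TAM than in *Mtm1* KO, a log2 fold change of 0.97 with a standard error of 0.16. The drug difference in the knockout minus that in wild type was -1.21 on the log2 scale with a standard error of 0.24. Over all genes tested, 0.131% were past an adjusted p of 0.01 in WT + TAM against WT, and Gpx3, which this contrast chose, is not read against that share. In *Mtm1* KO + TAM against *Mtm1* KO edgeR called 0% of genes, with 1137 at an unadjusted p under 0.05 and 72 called by DESeq2. Treated and untreated groups did not overlap for 11.5% of all genes in wild type and 7.69% in the knockout. With the 2 left-out libraries added, the log2 fold changes of Gpx3 were 2.02 in wild type and 1.11 in the knockout, and their difference was -0.89.

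**Figure D1:**
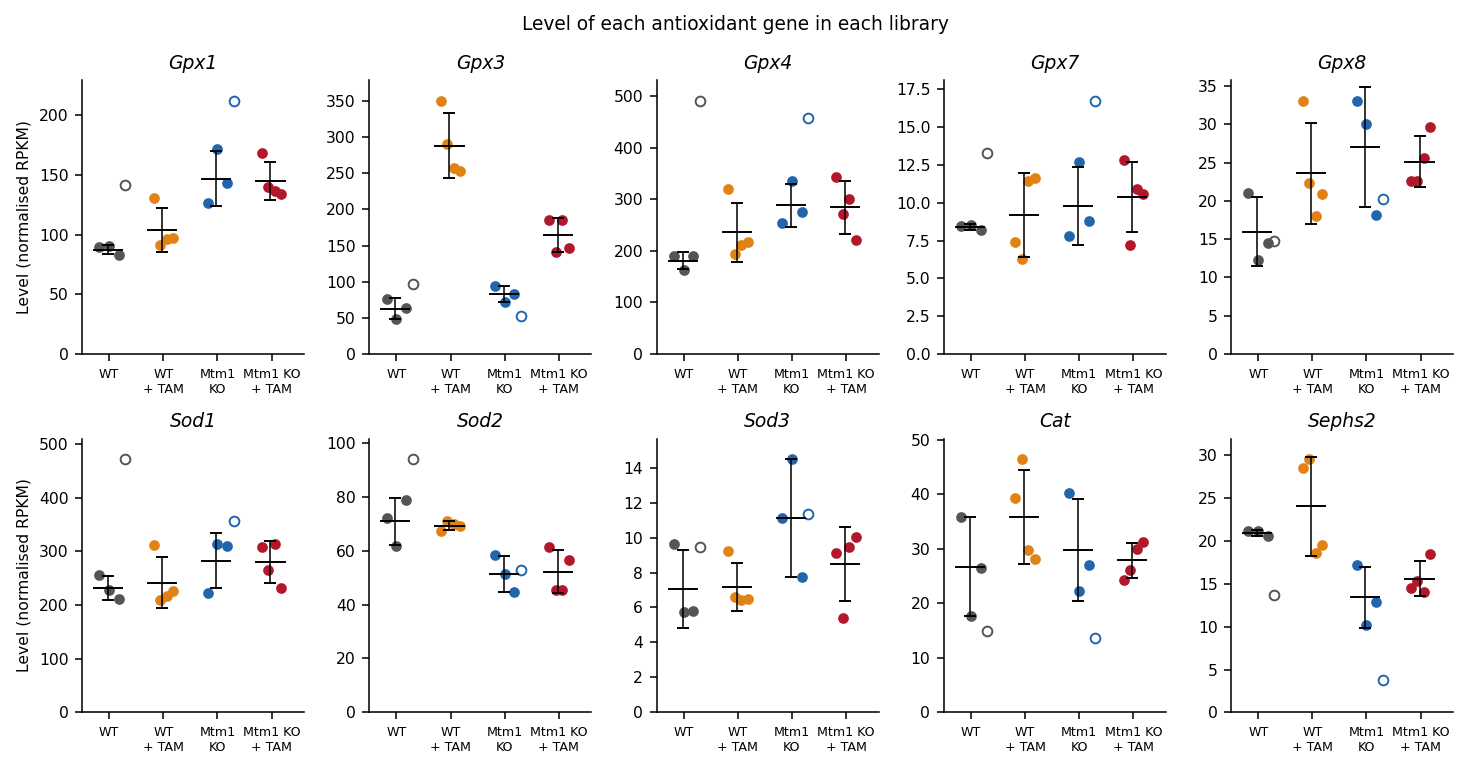
Normalised RPKM of each of the 10 genes (vertical axes, each from 0) in every library by group. Filled points are the 14 libraries used, bars the mean ± SD over them, and open points the libraries labelled WT replicate 1 and *Mtm1* KO replicate 12. Treated Gpx3 libraries sit between 142 and 351, all above the untreated ones, while the groups of the other 9 genes lie close together or differ by genotype.

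The other glutathione peroxidases differed far less with the drug. Gpx1, the abundant cytosolic enzyme, stood at 89.2, 90.1 and 82.7 normalised RPKM in WT and at 131, 91.0, 96.3 and 97.2 in WT + TAM. In *Mtm1* KO it stood at 126, 172 and 143, and in *Mtm1* KO + TAM at 168, 139.9, 137 and 134. The treated wild-type libraries were just above the untreated ones, with replicate 5 well above the rest, and the knockout groups overlapped. Its log2 fold change with the drug was 0.25 with a standard error of 0.14 in wild type and -0.03 with a standard error of 0.14 in the knockout.

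Gpx4, the membrane lipid peroxidase, was at 190.4, 162 and 189 normalised RPKM in WT and at 319.5, 194, 211 and 218 in WT + TAM. In *Mtm1* KO it was at 255, 335 and 275, and in *Mtm1* KO + TAM at 343, 272, 301 and 221. Treated and untreated wild types did not overlap, although 194 was barely above 190.4, and the knockout groups did overlap. The log2 fold changes with the drug were 0.38 with a standard error of 0.18 in wild type and -0.03 with a standard error of 0.17 in the knockout. In wild type this rested on the libraries used, since with the library labelled WT replicate 1, where Gpx4 was at 491, it became -0.13. Of the 50-base stretches of the Gpx4 transcript, 68.9% also occur in transcripts annotated to 2 other loci, among them a pseudogene. Neither locus was found by its symbol among the genes counted, and how reads that match both Gpx4 and these loci were treated is not known.

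The endoplasmic reticulum members were the least abundant of the family. Gpx7 ranged from 6.27 to 12.8 normalised RPKM over the 14 libraries, and its log2 fold change with the drug was 0.13 with a standard error of 0.22 in wild type and 0.08 with a standard error of 0.22 in the knockout. Gpx8 ranged from 12.3 to 33.1. Its drug difference was 0.56 with a standard error of 0.24 in wild type and -0.12 with a standard error of 0.20 in the knockout, with overlapping groups in both. The fold change of Gpx3 was therefore the only one of the family above 0.56 on the log2 scale in either genotype.

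Among the superoxide dismutases and catalase, the drug differences ran from -0.40 to 0.42, with Cat highest in wild type and Sod3 lowest in the knockout. Sod1, the cytosolic copper and zinc enzyme and the most abundant member in WT, ranged from 210.3 to 314 normalised RPKM over the 14 libraries, with drug differences of 0.06 and -0.03 in wild type and knockout. Sod2, the mitochondrial manganese enzyme, ranged from 44.8 to 78.9, with drug differences of -0.04 and 0.01. Sod3, the secreted enzyme, ranged from 5.4 to 14.5, with drug differences of 0.02 and -0.40. All 3 had overlapping treated and untreated groups in both genotypes. Cat, the peroxisomal enzyme, was at 35.8, 17.7 and 26.5 in WT, 39.4, 46.5, 29.7 and 28 in WT + TAM, 40.2, 22.2 and 27.0 in *Mtm1* KO, and 24.4, 26.1, 30 and 31.2 in *Mtm1* KO + TAM. Its drug differences were 0.42 with a standard error of 0.25 in wild type and -0.11 with a standard error of 0.19 in the knockout, and all 4 groups overlapped. Sephs2, which supplies selenium to the selenoproteins, had drug differences of 0.20 in both genotypes, each with a standard error of 0.18. Gpx8, Sod1 and Sephs2 overlap genes on the opposite strand. These are Cdc20b, with 0 counts, Scaf4, with 323 to 584 counts, and Gm44729, which was not found by its symbol among the genes counted. Of the 50-base stretches of Sod1, 23.1% also occur in Gm8566, which had 3 to 52 counts, and 34.9% of those of Sephs2 occur in Gm44729. With no strand setting known, how reads of these shared stretches were assigned cannot be told.

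**Figure D2:**
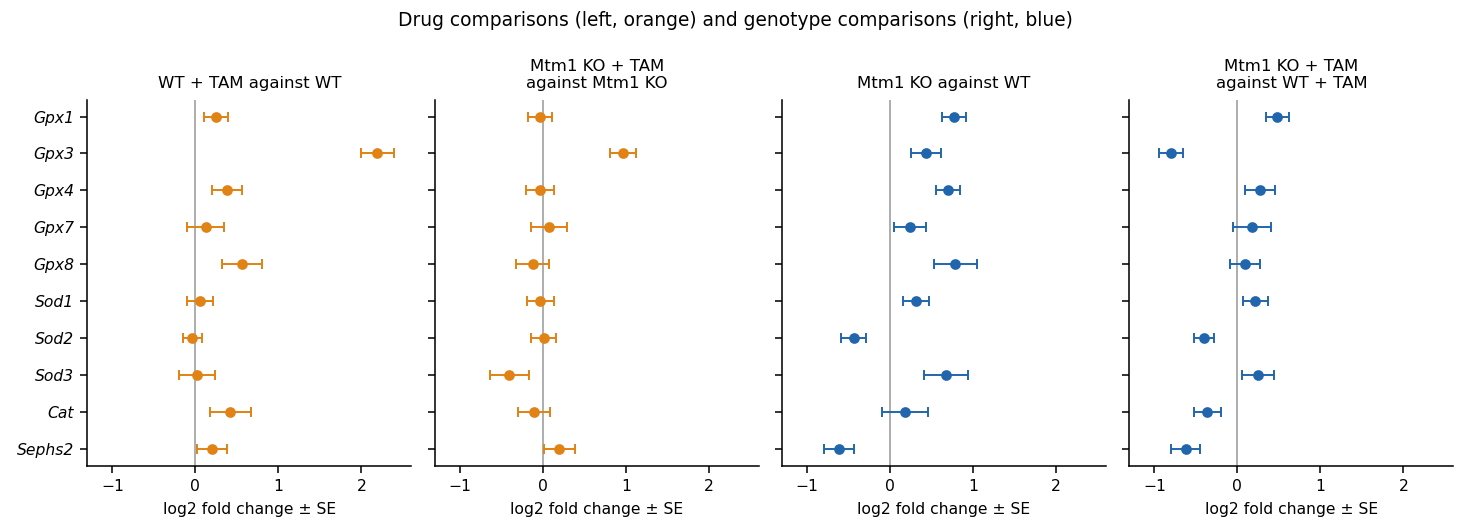
Log2 fold change ± standard error of each of the 10 genes (horizontal axes) in the 2 drug comparisons (orange) and the 2 genotype comparisons (blue). Gpx3 lies at 2.19 and 0.97 in the drug comparisons, with the other 9 genes between -0.40 and 0.56, while in the genotype comparisons Gpx1 lies above 0 and Sod2 and Sephs2 below it with and without the drug.

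The make-up of the family shifted with Gpx3. The 5 glutathione peroxidase transcripts summed to 355 ± 32.3 normalised RPKM in the WT libraries and, with the drug, to 660.3 ± 121. In *Mtm1* KO they summed to 555 ± 57.5 and, with the drug, to 629 ± 84.0 (mean ± SD over the 3 or 4 libraries, here and for the shares). Gpx3 made up 17.5% ± 2.43 of that sum in WT and 43.8% ± 2.95 in WT + TAM, against 15.2% ± 3.40 in *Mtm1* KO and 26.2% ± 1.72 in *Mtm1* KO + TAM. Gpx4 was the largest component in WT at 50.9%, in *Mtm1* KO at 51.8% and in *Mtm1* KO + TAM at 45.0%, and in WT + TAM it came second at 35.5%. Shares do not depend on library scaling, and the Gpx3 share did not overlap between treated and untreated libraries of either genotype. Transcripts of 2 cysteine members, Gpx7 and Gpx8, together never passed 10% of the sum.

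**Figure D3:**
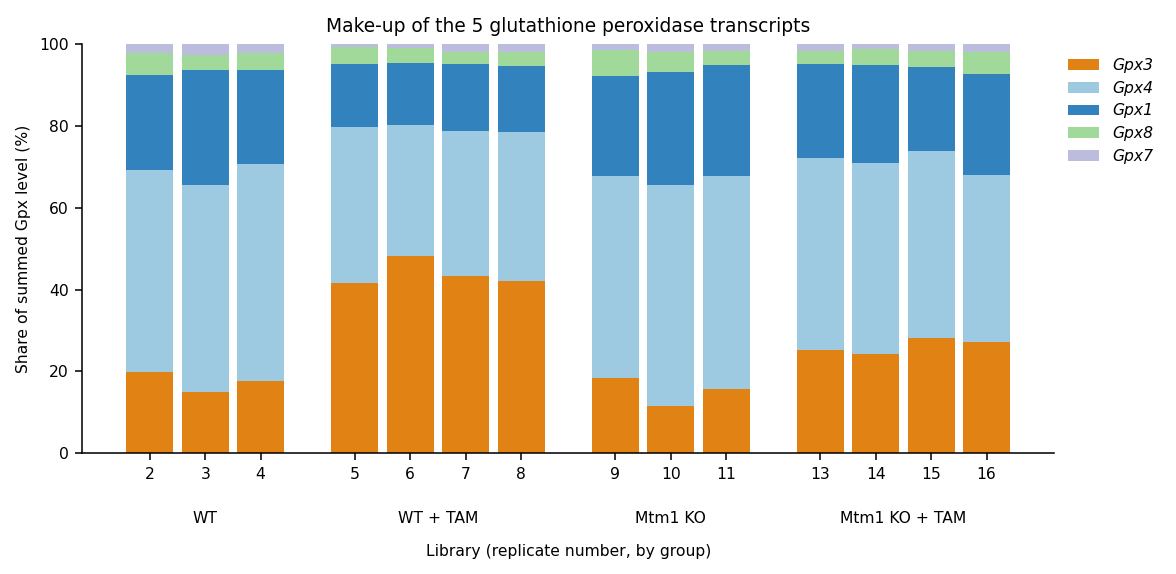
Share of each gene in the summed normalised RPKM of the 5 glutathione peroxidases (vertical axis, percent) for each of the 14 libraries, grouped on the horizontal axis. Gpx3 (orange) takes 41.7% to 48.1% in WT + TAM and 24.3% to 28.1% in *Mtm1* KO + TAM, against 11.6% to 19.9% in the untreated libraries.

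The rule that chose the other 9 members did not use the genotype comparisons, which were tested for them with edgeR, with Benjamini-Hochberg adjustment over all genes. These 9 were still picked with earlier results of these data known. Gpx3 was chosen on the levels of these same libraries, so its genotype differences are a description with no test. In *Mtm1* KO against WT, 0 of the 9 members other than Gpx3 were past an adjusted p of 0.01, where 3.6% of the 14740 genes tested were. At 0.05, Gpx1 and Gpx4 passed, 2 of 9 beside a background of 12.8%. Gpx1 was 1.71-fold higher, with a log2 fold change of 0.77, a standard error of 0.14 and an adjusted p of 0.0105. Gpx4 was 1.62-fold higher, with a log2 fold change of 0.70, a standard error of 0.15 and an adjusted p of 0.0192. For both, the 3 knockout libraries were above the 3 WT libraries, as they were for 17.4% of all genes. DESeq2 put both under 0.01, with adjusted p-values of 3.15e-05 and 0.000195, whereas with the 2 left-out libraries added neither passed, at 0.107 and 0.603. Over the replicates left out in turn, the edgeR adjusted p ran from 0.00912 to 0.0488 for Gpx1 and from 0.0194 to 0.0607 for Gpx4.

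All 5 glutathione peroxidases had a positive difference in *Mtm1* KO against WT, with a median of 0.70 against 0.02 over all genes tested. Gpx8 had a log2 fold change of 0.79 and an adjusted p of 0.0760, and Gpx7 of 0.24 and 0.445, so neither passed. The difference of Gpx3 was 0.43 with a standard error of 0.18. Sod1, Sod3 and Cat did not pass either, with differences of 0.31, 0.68 and 0.18. Sephs2 was at 21.1, 21.1 and 20.5 normalised RPKM in WT and at 17.2, 10.1 and 12.9 in *Mtm1* KO, and Sod2 was at 72.0, 61.6 and 78.9 against 58.2, 51.3 and 44.8. Both were lower in each of the 3 knockouts without overlap, as were 19.0% of all genes, and neither passed, with differences of -0.62 and -0.44 and adjusted p-values of 0.0568 and 0.0867. At an unadjusted p under 0.05 there were 6 of the 9 members and 4431 of the 14740 genes.

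With tamoxifen in both genotypes, 0 of the 9 members other than Gpx3 passed 0.01 in *Mtm1* KO + TAM against WT + TAM, beside 6.72% of the 14563 genes tested. At an unadjusted p under 0.05 there were 4 of the 9 members and 4700 of the 14563 genes. Gpx3 was lower in the treated knockouts, with a log2 fold change of -0.80 and a standard error of 0.15, given as a description. Scaled by library size alone, this difference was -0.52. All 7 fat cell markers also had negative differences in this comparison, with a median of -0.58 and 0 of 7 past 0.05 (edgeR, adjusted), and their part in it was not tested. At 0.05, where 17% of genes passed, 3 of the 9 members did: Gpx1 was higher with a log2 fold change of 0.48 (adjusted p = 0.0336), Sephs2 lower with -0.62 (adjusted p = 0.0287) and Sod2 lower with -0.41 (adjusted p = 0.0418). With 1 replicate left out, the highest edgeR adjusted p was 0.0903 for Gpx1, 0.0947 for Sephs2 and 0.128 for Sod2, so none of the 3 held 0.05 throughout. WT + TAM replicates 7 and 8, the most alike pair, were also counted as 1 library. The edgeR adjusted p was then 0.0888 for Gpx1, 0.0876 for Sod2 and 0.0233 for Sephs2, so only Sephs2 of these 3 passed 0.05. Sephs2 was at 28.5, 29.5, 18.6 and 19.5 normalised RPKM in WT + TAM and at 14.5, 15.3, 14 and 18.5 in *Mtm1* KO + TAM, so the lowest treated wild type, at 18.6, was barely above the highest treated knockout, at 18.5. Sod2 was at 67.2, 70.9, 69.9 and 69.0 against 61.5, 45.3, 45.5 and 56.4. Gpx3, Sephs2 and Sod2 were thus lower without overlap, as were 11.6% of all genes, and Gpx1 was higher without overlap, as were 10.9%. Gpx4, Gpx7, Gpx8, Sod1, Sod3 and Cat overlapped between the groups and did not pass, with differences from -0.36 to 0.27. Sephs2 thus had the same difference of -0.62 with and without the drug, and Gpx4 had 0.70 without it and 0.27 with it. Whether these differences themselves differ was not tested for the members, since that interaction holds the drug contrast.

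Gene length moved with genotype. Genes of up to 1000 bases had a median log2 fold change of 0.19 in *Mtm1* KO against WT, those of 1000 to 1500 bases 0.14, and those over 4000 bases -0.03. The lengths the authors used were 1041 bases for Gpx1, 1016 for Gpx8, 646 for Sod1 and 1724 for Gpx4. When each library was also scaled within classes of gene length, the *Mtm1* KO against WT difference of Gpx1 became 0.60 (edgeR adjusted p = 0.0138), that of Gpx4 0.59 (adjusted p = 0.0225) and that of Sod1 0.04 (adjusted p = 0.879). The Gpx3 difference between treated genotypes was -0.90 on that scale. The 5 slow fiber markers summed to 104.7 to 445 normalised RPKM in *Mtm1* KO and 3.18 to 157 in WT, with 0 of 5 past 0.05 (edgeR, adjusted). They summed to 69.5 to 347 in *Mtm1* KO + TAM and 6.81 to 95.6 in WT + TAM, with 3 of 5 past 0.05, all higher.

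Markers of other fibers and cell types also differed by genotype. The 8 skeletal muscle fiber markers summed to 77329 to 96999 normalised RPKM in WT and 48212 to 53764 in *Mtm1* KO, without overlap, and 4 of 8 were past 0.05, all lower. With the drug they summed to 79420 to 92006 in wild types and 43031 to 68543 in knockouts, with 5 of 8 lower and 2 higher past 0.05. The 7 leukocyte markers were all nominally higher in both genotype comparisons, with 2 of 7 past 0.05 in each. Smooth muscle markers had 2 of 4 past 0.05, both lower, in *Mtm1* KO against WT and 0 of 4 with the drug, and fibroblast markers had 0 of 5 and 1 of 5, the latter higher. Markers of fat, red blood cells and endothelium had none past 0.05 in either. The part of these markers, slow fibers included, in the member differences was not tested.

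Fat cells are a known source of Gpx3 and Cat, and muscle samples can hold fat. The 7 fat cell markers were detected in every library, and their summed level was 386 to 2337 normalised RPKM in WT, 991 to 3742 in WT + TAM, 1294 to 2358 in *Mtm1* KO and 1248 to 1896 in *Mtm1* KO + TAM. None of these markers was past 0.05 (edgeR, adjusted) in either drug comparison. In WT + TAM against WT, 7 of 7 were nominally higher, with a median log2 fold change of 0.79 and a range from 0.19 to 1.76. In the knockouts 1 of 7 was nominally higher with the drug, with a median of -0.15. The drug difference in the knockout minus that in wild type was negative for 7 of 7, with a median of -1.12 and 0 past 0.05 (edgeR, adjusted). The fat marker sums of untreated and treated libraries overlapped in both genotypes. All 6 endothelial markers were nominally lower with the drug in both genotypes, with medians of -0.51 in wild type and -0.42 in the knockout. At an unadjusted edgeR p under 0.05 were 5 of 6 in wild type, beside 1549 of all 14544 genes, and 3 of 6 in the knockout, beside 1137 of 15062. None of these endothelial markers was past an adjusted 0.05. They summed to 69.3 to 108 normalised RPKM in WT and 48.3 to 68.9 in WT + TAM, without overlap, and to 60.4 to 84.1 in *Mtm1* KO and 39.8 to 64.5 in *Mtm1* KO + TAM. Fibroblast markers summed to 778 to 867 in WT and 496 to 738 in WT + TAM, also without overlap, with 0 of 5 past 0.05. Smooth muscle markers summed to 137.6 to 146 in WT and 108 to 137.2 in WT + TAM, barely apart, with 0 of 4 past 0.05. In the knockout all 4 were nominally higher with the drug. The 5 slow fiber markers were all nominally lower with the drug, with medians of -0.71 in wild type and -0.24 in the knockout and 0 past 0.05. The part of fat, endothelium, fibroblasts, smooth muscle and slow fibers in the drug difference of Gpx3, and in its gap between genotypes, was not tested.

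**Figure D4:**
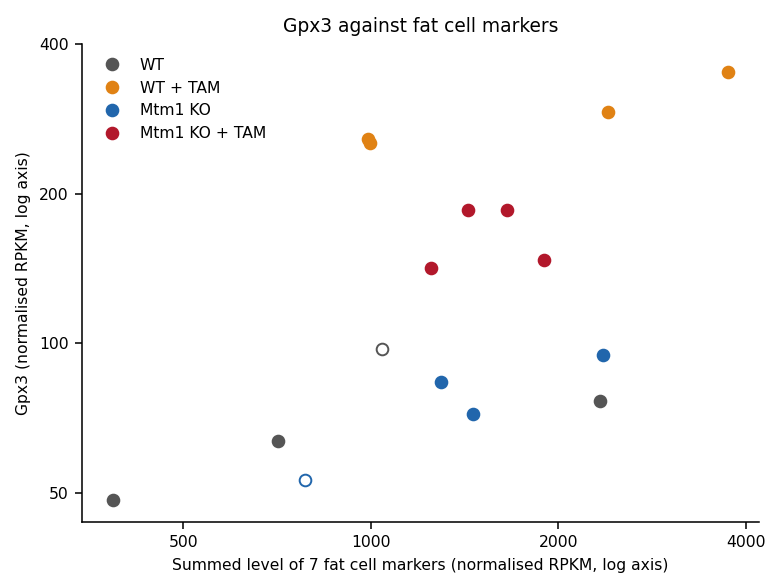
Gpx3 against the summed level of 7 fat cell markers (both in normalised RPKM, log axes), with 1 point per library, filled for the 14 libraries used and open for the libraries labelled WT replicate 1 and *Mtm1* KO replicate 12. Gpx3 lies at 253 to 351 in WT + TAM and at 142 to 186 in *Mtm1* KO + TAM, and the fat marker sums of the 4 groups overlap along the horizontal axis.

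The promoter of Gpx3 is printed because its transcript stood apart from the family with the drug, a ligand of receptors that bind DNA at known motifs. RefSeq places it at chr11:54902604-54902903 on the plus strand of GRCm38.p6, from 250 bases before to 50 after the start site. Motifs were searched on both strands and matches are in capitals:
Gpx3 promoter: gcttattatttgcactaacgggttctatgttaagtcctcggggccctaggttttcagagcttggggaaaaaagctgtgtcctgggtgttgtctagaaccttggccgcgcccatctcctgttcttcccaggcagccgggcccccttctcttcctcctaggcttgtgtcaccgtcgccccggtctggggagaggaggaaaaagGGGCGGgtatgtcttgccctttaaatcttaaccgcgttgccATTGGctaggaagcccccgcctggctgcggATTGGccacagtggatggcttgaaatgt

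The window held a GC box (GGGCGG) starting 49 bases before the RefSeq start site and the complement of the CCAAT box at 8 bases before it and at position 23 after it. It held no full estrogen response element palindrome (GGTCANNNTGACC), no nuclear receptor half-site (GGTCA, which the palindrome contains), no antioxidant response element core (TGACNNNGC) and no TATAAA. Over the 32851 promoters of the same length, GGGCGG was present in 35.7%, CCAAT in 37.4%, GGTCA in 40.5%, TGACNNNGC in 12.4%, TATAAA in 13.6% and the palindrome in 0.07%. Of the 9 members with a promoter in the table, GGTCA was in Cat, Gpx4, Sod1 and Sod2, and none held the palindrome. These are matches of letters in a short window, and the absence of a match says nothing of sites elsewhere. The annotations also differ on where Gpx3 starts. GENCODE vM21 starts the transcript used for the codon at chr11:54902772, before the RefSeq start site, and the gene at chr11:54902453, before the window. By that transcript, the matches in capitals lie after the start.

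The wider selenium and redox system was described by 73 genes outside the members, also picked with earlier results of these data known. In *Mtm1* KO against WT, 1 of the 62 genes tested was past 0.01, beside 3.6% of the whole table. This was Srxn1, sulfiredoxin, which restores overoxidised peroxiredoxins, and it rose 2.51-fold with an adjusted p of 0.00202, from 7.59 to 8.57 normalised RPKM in WT to 17.5 to 25.1 in *Mtm1* KO. The call was lost without WT replicate 4. The median over the 62 genes was 0.01, against 0.02 over all genes. By list, 8 of 10 thioredoxins and peroxiredoxins had positive differences, with a median of 0.35. Of the 8 tested enzymes that make superoxide or hydrogen peroxide, 7 did, with a median of 0.83 and none past 0.01. Of 14 genes of glutathione synthesis and recycling, 5 had positive and 9 negative differences, with a median of -0.20, and of 10 genes of selenium supply and selenocysteine incorporation, 3 had positive and 7 negative ones, with a median of -0.08. The 16 other selenoproteins split into 8 and 8, with a median of -0.02, and the 4 genes of copper supply into 2 and 2. Several of the enzymes that make superoxide or hydrogen peroxide are made by leukocytes, whose 7 markers summed to 116 to 159 normalised RPKM in *Mtm1* KO and 82.6 to 99.4 in WT, and the part of these cells was not tested.

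In *Mtm1* KO + TAM against WT + TAM, 6 of 62 list genes (9.68%) were past 0.01, beside 6.72% of all genes in either direction. All 6 were higher, and 3.42% of all genes were called higher. The deiodinase Dio2, a selenoprotein that activates thyroid hormone, rose 4.57-fold (adjusted p = 0.000717), and Dio3, the selenoprotein deiodinase that inactivates it, rose 4.47-fold (adjusted p = 0.00204). Both were low, with Dio2 at 1.02 to 2.44 normalised RPKM in the treated knockouts and 0.341 to 0.506 in treated wild types. Srxn1 rose 2.43-fold (adjusted p = 0.00431) and thioredoxin, Txn1, rose 1.77-fold (adjusted p = 0.00598). The oxidase Nox4 rose 3.20-fold (adjusted p = 0.00424). Leukocyte marker sums were 112 to 191 normalised RPKM in the treated knockouts against 38.2 to 107 in treated wild types, and their part was not tested. Counting WT + TAM replicates 7 and 8 as 1 library left 2 list calls, Dio2 and Dio3, with 539 of the 14929 genes then tested called.

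None of these list genes passed in either drug comparison by edgeR. Under an unadjusted p of 0.05 were 3 of 63 in the knockout, beside 1137 of all 15062 genes, and 9 of 62 in wild type, beside 1549 of 14544. None passed in the interaction either, with 1 of 63 under an unadjusted p of 0.05, beside 664 of 15556 genes. DESeq2 called 2 list genes in the knockout and none in wild type at 0.01, beside 72 and 214 over all genes. Dio3 had the largest drug difference of the lists, with 0.0804 to 0.157 normalised RPKM in *Mtm1* KO and 0.792 to 1.81 in *Mtm1* KO + TAM, a log2 fold change of 3.48 (edgeR adjusted p = 0.0600). In wild type its level was 0.0544 to 0.0774 in WT and 0.233 to 0.394 in WT + TAM, a log2 fold change of 2.21 (adjusted p = 0.104). The groups did not overlap in either genotype, nor did 7.69% and 11.5% of all genes, and the gap between these log2 fold changes did not pass (interaction 1.26, adjusted p = 0.9998).

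The selenoproteins named for reference showed no call in any comparison. Selenow, a small muscle selenoprotein, was the most abundant, at 1192 to 1856 normalised RPKM over the 14 libraries. Selenop, the plasma carrier of selenium, was at 52.2 to 75.4, Selenon, a muscle endoplasmic reticulum protein, at 2.85 to 5.16, and the thioredoxin reductases Txnrd1 and Txnrd2 at 14.5 to 33.1 and 5.49 to 8.42. The other glutathione peroxidases Gpx2, Gpx5 and Gpx6 were too low to test.

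The genes whose pattern was most like that of Gpx3 were ranked by Pearson r on log2 CPM over the 14 libraries and 11863 genes, as a description. The 5 highest were Flrt1 at 0.939, Oxtr, the oxytocin receptor, at 0.934, Eif2b3 at 0.922, Aqp5, a water channel, at 0.903 and Lzts2 at 0.900. Flrt1 was at 0.116 to 0.233 normalised RPKM in WT and 15.8 to 19.2 in WT + TAM, and at 0.106 to 0.285 in *Mtm1* KO and 1.69 to 7.70 in *Mtm1* KO + TAM, so its 4 group means had the same order as those of Gpx3. These libraries share the drug groups that chose Gpx3. With the 2 left-out libraries added, Eif2b3 fell to rank 12 (r = 0.845) and Lzts2 to rank 40 (r = 0.777). With each group's mean removed, Flrt1 left the list with r = -0.02, and the highest were Atad3a at 0.882, Slc27a1 at 0.878, Pnpla2 at 0.867, the fat hormone Retn at 0.858 and Selenop at 0.846, genes that rank by variation within groups. Among the members, Cat was closest, with r of 0.544 over the libraries and 0.730 within groups.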

How the data were processed

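Quadriceps RNA of 16 mice was sequenced. The authors aligned reads to GRCm38 with STAR, counted reads per gene with HTSeq and deposited raw counts for 41388 genes together with RPKM values made from them, and the submitters' processing notes name bcl2fastq 2.17, STAR 2.5.0c and Cufflinks 2.2.1. For the annotation, strand setting and counting mode, the sources used here give nothing. Groups followed the labels, and whether each library is a separate animal is taken from the study's description.

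Counts were tested with edgeR 4.0.16 (quasi-likelihood, TMM, filterByExpr with a minimum count of 10 and total of 15) on the 2 groups of each comparison, with Benjamini-Hochberg adjustment over all genes tested and a threshold of 0.01. The interaction used all 4 groups of the 14 libraries. Standard errors were the log2 fold change divided by the square root of F. Levels are the deposited RPKM divided by each library's TMM factor over all 16 libraries. DESeq2 1.42.0, limma 3.58.1 on log2(RPKM + 0.1) and log2(RPKM + 1), and other filters and scalings were alternatives, and the edgeR test of 2 groups was tested on simulated data. The members, the 73 list genes and the markers were chosen with earlier results of these data known. Members matched by symbol, and of the list genes 61 matched by symbol, 11 by an older symbol and 1 by gene ID. Named genes were the members, Mtm1, Selenop, Selenow, Selenon, Txnrd1, Txnrd2, list genes past 0.01 in a comparison and the 5 most like Gpx3 (mean count of at least 50). The genes ranked within groups were chosen after their values were seen. Of the list genes past 0.01, 1 is not reported here. Codon windows, gene overlaps and shared 50-base stretches came from GENCODE vM21 transcripts of GRCm38. Python 3.11 and matplotlib drew the figures.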

Additional observations from a re-analysis of the deposited data

Results flagged for a closer look

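In WT + TAM replicate 5, 3 members stood apart from the 3 other libraries of that group by Dixon's test at 95%. Gpx1 was at 131 normalised RPKM there, Sod1 at 312 and Sod3 at 9.21, each the highest of its group. Of the 20 combinations of a member and a group of 4 libraries that were looked at, chance alone flags about 1 in 20. The 3 values come from the same library, which also had the highest fat cell marker sum of the 16, 3742 normalised RPKM.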

How the results depend on the processing

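The paper describes the sequenced samples as coming from littermates. The labels used here name no litter and the replicate numbers of the groups are all different, so no paired analysis was possible. Counts of calls in *Mtm1* KO against WT rose from 0 members and 1 list gene to 2 and 6 with DESeq2, 2 and 6 scaled by library size alone, 2 and 3 without a filter on low counts, 1 and 2 with at least 10 counts in every library, 1 and 4 in 1 fit of all 4 groups, 2 and 2 with limma on log2(RPKM + 1), and 2 and 8 at a threshold of 0.05. Calls over all genes went from 531 to 1678, 1163, 1096, 526, 987, 852 and 1885 under the same settings in that order. Leaving out each replicate gave 0 to 1 members, with Gpx1 called without *Mtm1* KO replicate 9, and 0 to 2 list genes, with 0 without WT replicate 4 and 2 without *Mtm1* KO replicate 9. Calls over all genes were 194 without WT replicate 4 and 363 without *Mtm1* KO replicate 9. For *Mtm1* KO + TAM against WT + TAM, only the 9 members other than Gpx3 are followed, since Gpx3 is described without a test. The main fit called 0 of the 9 and 6 list genes. DESeq2 put Gpx1 and Sephs2 past 0.01. Gpx1 also passed when scaled by library size alone, with both limma settings and without WT + TAM replicate 5. At 0.05 there were 3 of the 9 members and 12 list genes, beside 2476 of all 14563 genes. The 6 list genes became 15 scaled by library size alone, and 2 when WT + TAM replicates 7 and 8 were counted as 1 library. Calls over all genes went from 979 to 1874 by library size alone, to 539 with that pair counted as 1 library and to 1995 with DESeq2. Leaving out each replicate gave 2 to 6 list genes, with 2 to 3 without WT + TAM replicate 6, 7 or 8 or *Mtm1* KO + TAM replicate 15 or 16. Without each of these in turn, calls over all genes were 689, 554, 538, 424 and 827. In *Mtm1* KO + TAM against *Mtm1* KO, 0 list genes became 2 with DESeq2, 1 without a filter and 1 in 1 fit of all 4 groups. There, 0 calls over all genes became 72, 12 and 2. The causes were not tested.

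Scaling by library size alone moved the median of all genes to 0.33 in *Mtm1* KO against WT and 0.27 in *Mtm1* KO + TAM against WT + TAM, and the Gpx3 difference between treated genotypes to -0.52, which limma also gave. Over all genes, DESeq2 called 1678 in *Mtm1* KO against WT where edgeR called 531, 72 against 0 in *Mtm1* KO + TAM against *Mtm1* KO, and 214 against 19 in WT + TAM against WT. In the genotype comparisons, 4 values of the members changed sign, none of them called: Cat in *Mtm1* KO against WT was -0.042 without WT replicate 3 and -0.094 without *Mtm1* KO replicate 9, in a range from -0.094 to 0.45 over replicates left out, and Gpx8 in *Mtm1* KO + TAM against WT + TAM was -0.042 when scaled within length classes and -0.019 without WT + TAM replicate 7, in a range from -0.019 to 0.30. In the drug comparisons, the sign changed under at least 1 alternative for 5 of 10 members in wild type (Gpx4, Gpx7, Sod1, Sod2 and Sod3) and for 7 of 10 in the knockout (Cat, Gpx1, Gpx4, Gpx7, Gpx8, Sod1 and Sod2), and in the interaction for 4. With the 2 libraries added, the wild-type drug difference went from 0.38 to -0.13 for Gpx4 and from 0.06 to -0.27 for Sod1. Gpx3 stayed between 2.02 and 2.37 in wild type and between 0.88 and 1.11 in the knockout under the alternatives that left out replicates or added the 2 libraries. The choices of counting 2 libraries as 1 and of scaling by length were made after seeing the data.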
